A study of Mus musculus with 6 samples.

Results

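The genes described here are Gpnmb and 9 genes of the lysosome, Ctsb, Ctsd, Ctsl, Ctsz, Lamp1, Lamp2, Psap, Grn and Hexa, measured as ribosome footprints in mouse ID8 cells, a line derived from ovarian surface epithelium. They were picked by symbol: each of the 10 matched 1 row of the 53465 genes in the deposited count table through its Ensembl identifier in GENCODE M21 (GRCm38). The samples are titled KO or WT, with 3 libraries each, and the series' design text names sgNat10 (NAT10-depleted) and sgNC (control) cells; KO is read here as sgNat10 and WT as sgNC, a link that the titles do not spell out. Before lysis all cells had 2 minutes of cycloheximide at 100 µg/mL, which holds ribosomes in place. A footprint is the stretch of mRNA that a translating ribosome shields from nuclease, so a gene's count reflects both its mRNA level and the ribosomes on each mRNA. Matched RNA-seq was not used here, and these contributions cannot be told apart. The labels do not say whether the cells were 1 clone or a pool, or whether the replicates are independent cultures. The p-values therefore cover no more than the variation among these 6 libraries, which may be technical.

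Gpnmb encodes a heavily glycosylated type I membrane protein that is sorted to lysosomes and melanosomes, reaches the cell surface, and can be shed from it by metalloproteases. Lysosomes break down proteins, glycans and lipids with acid hydrolases, which work in a lumen kept acidic by the vacuolar ATPase and bounded by heavily glycosylated LAMP proteins. Transcription factors of the MiT/TFE family (Mitf, Tfeb, Tfe3, Tfec) switch on many lysosomal genes together through CACGTG-type sites and are known to act on Gpnmb as well. Gpnmb is therefore often read next to cathepsins and LAMPs, and the comparison made here is whether its rise in the KO libraries came with a rise of those genes.

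Total gene counts were 2541273, 2234305 and 3126208 in the KO libraries and 1687466, 2148715 and 1811225 in the WT libraries. Between 8 and 150 counts, the most common count per gene was 42, 46 and 60 in the KO libraries and 15, 21 and 39 in the WT libraries. Counts divided by that value are called molecule equivalents below, a stand-in for distinct fragments if reads are PCR copies, which was not tested. Nat10 itself did not separate the groups, with 123, 56.9 and 138 CPM in the KO libraries and 102, 64.0 and 169 CPM in the WT libraries, where CPM is the usual depth-scaled count, here with TMM-adjusted library sizes. Its log2 fold change was -0.074 (SE 0.48, 95% interval -1.09 to 0.94). KO below is therefore a label, and no loss of Nat10 footprints over the whole gene was detected. The position of the guide's cut was not used here, so footprints before and after it were not told apart. Genes of ovarian surface epithelium and mesothelium were present: the 8 listed summed to 4180 to 4827 CPM in the KO libraries and 5885 to 6337 CPM in the WT libraries. Within that list Krt7 had 6 counts in 1 WT library and 0 in the other libraries, and Cdh1 had counts in 2 WT libraries only. Some genes of this list differed between the groups. Msln, the mesothelial surface protein mesothelin, averaged 1636 ± 209 CPM in KO and 789 ± 83.5 CPM in WT (SD, n = 3, edgeR adjusted p = 0.0145). The keratin Krt19 averaged 2223 ± 32.1 CPM in KO and 4202 ± 203 CPM in WT (edgeR adjusted p = 0.0044), and Krt18 averaged 154 ± 53.5 CPM in KO and 515 ± 123 CPM in WT (edgeR adjusted p = 0.0195). Krt8 averaged 36.6 ± 39.0 CPM in KO and 198 ± 46.2 CPM in WT, without overlap but not called (edgeR adjusted p = 0.510). Wt1 (169.5 CPM in KO, 169.9 CPM in WT) and Upk3b (log2 fold change 0.47) had overlapping groups. The part of such differences in the results below was not tested, and in bulk libraries fewer cells of a type and less RNA per cell cannot be told apart. Macrophages are rich in Gpnmb and cathepsins, and of 16 macrophage markers 14 had at most 3 counts over all 6 libraries. Their summed level was 0 to 12.7 CPM in the KO libraries and 0 to 43.5 CPM in the WT libraries, and Itgam, Tyrobp, Fcer1g and C1qa were at 0 throughout. Among those 14, every count lay in KO replicate 3, also the library with the most Gpnmb and the highest total, and a link was not tested. The exceptions were Cd14, with counts in both groups, and Cd68, with 10 and 29 counts in WT replicates 1 and 2. Of 7 fibroblast and endothelial markers, Col15a1 (5 counts), Dpt (1), Pecam1 (2), Cdh5 (1) and Kdr (2) likewise had counts in KO replicate 3 only. The others, Pdgfra and Tek, had counts in WT libraries too.

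Gpnmb (ENSMUSG00000029816, protein-coding, plus strand of chromosome 6, 49036546 to 49070929 in GRCm38) was the most raised of the 10. It had 1652, 1188 and 2884 counts in KO and 335, 276 and 341 counts in WT. On the CPM scale these were 644, 509 and 895 in KO and 204, 138 and 197 in WT. Every KO library lay well above every WT library, and the lowest KO value was that of replicate 2. The group means were 683 ± 196 CPM in KO and 180 ± 36.2 CPM in WT (SD, n = 3), a fitted log2 fold change of 1.93 (SE 0.27, 95% interval 1.35 to 2.50). Gpnmb was picked for this rise, so its values are a description and support no test. It was 1 of 15 genes called higher (0.183% of 8200 tested) at an adjusted p under 0.05 in edgeR's quasi-likelihood test, and 1 of 33 called in either direction (0.402%), with 0.22% called lower. Single WT libraries decided whether it was called: the adjusted p was 0.068 without WT replicate 2 and 0.061 without WT replicate 3. In molecule equivalents it stood at 39.3, 25.8 and 48.1 in KO and at 22.3, 13.1 and 8.74 in WT.

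The start regions of 9 of the 10 genes were in the RefSeq table of GRCm38.p6 (250 bases before to 50 after the annotated start; Psap had 2 such windows, giving 10). The window of Gpnmb is shown because Gpnmb led the group. RefSeq's starts need not coincide with the GENCODE gene ends given here. The window of Ctsl is shown because Ctsl had the next largest difference, and that of Lamp1 because it held the most copies of CACGTG. All run 5′ to 3′ on the gene's strand, and capitals mark CACGTG, the core of the site that MiT/TFE factors bind, and TGACTCA or its reverse complement, the site of AP-1 dimers. The AP-1 letters were searched after the Gpnmb window had been read.
Gpnmb, chr6:49036268-49036567, plus strand: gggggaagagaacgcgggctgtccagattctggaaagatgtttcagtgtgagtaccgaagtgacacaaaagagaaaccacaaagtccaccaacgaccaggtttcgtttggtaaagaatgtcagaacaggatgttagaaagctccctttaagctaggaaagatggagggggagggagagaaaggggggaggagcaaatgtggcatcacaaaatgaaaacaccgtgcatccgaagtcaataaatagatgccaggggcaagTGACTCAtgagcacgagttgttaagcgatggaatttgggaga
Ctsl, chr13:64370471-64370770, minus strand: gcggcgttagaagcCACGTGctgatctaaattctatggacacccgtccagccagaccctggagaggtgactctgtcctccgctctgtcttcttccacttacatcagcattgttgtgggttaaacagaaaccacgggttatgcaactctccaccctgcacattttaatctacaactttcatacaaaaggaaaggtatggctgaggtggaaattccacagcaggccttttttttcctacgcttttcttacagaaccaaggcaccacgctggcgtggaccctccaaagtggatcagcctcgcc
Lamp1, chr8:13158911-13159210, plus strand: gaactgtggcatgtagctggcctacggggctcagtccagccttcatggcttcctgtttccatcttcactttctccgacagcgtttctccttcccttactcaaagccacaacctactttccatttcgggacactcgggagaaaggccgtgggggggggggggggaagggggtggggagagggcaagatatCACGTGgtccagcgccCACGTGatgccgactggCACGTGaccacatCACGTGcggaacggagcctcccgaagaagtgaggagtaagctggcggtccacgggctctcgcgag

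The letters CACGTG, their own reverse complement, were in the windows of 3 of the 9 genes: Lamp1, which held 4 copies, Ctsd, which held 2, and Ctsl. They were in 7.15% of all 32851 RefSeq windows of this length. The longer form with GT before and AC after that core was in none of the 10 member windows and in 0.326% of all windows. CATGTG or its reverse complement CACATG, the core of the M-box bound by Mitf, was in the Grn window and in 14.2% of all windows. TGACTCA or TGAGTCA was in the Gpnmb window, 9 bases after the start, in a Psap window, and in 5.20% of all windows. The Gpnmb window thus held none of the CACGTG or CATGTG letters. The windows with CACGTG belonged to genes whose fitted differences ran from -0.22 (Ctsd) to 0.79 (Ctsl) on the log2 scale. A match is a run of letters and not a measured site.

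None of the 9 other genes was called (0 of 9 by edgeR, beside 0.402% of all genes). Ctsl alone had an unadjusted p under 0.05, beside 6.49% of all genes. Of the 9, 6 had a positive and 3 a negative fitted log2 fold change, with a median of 0.29 and a range of -0.22 to 0.79. The median of all tested genes was -0.016, and 49.0% of them were positive. In 2 of the 9 genes, Ctsl and Lamp2, every KO library lay above every WT library, a pattern shown by 6.94% of all genes tested, and none showed the opposite, which 7.93% of all genes did (14.9% in either direction). All 10 genes passed the count filter, and with 9 genes these shares are descriptions.

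**Figure D1:**
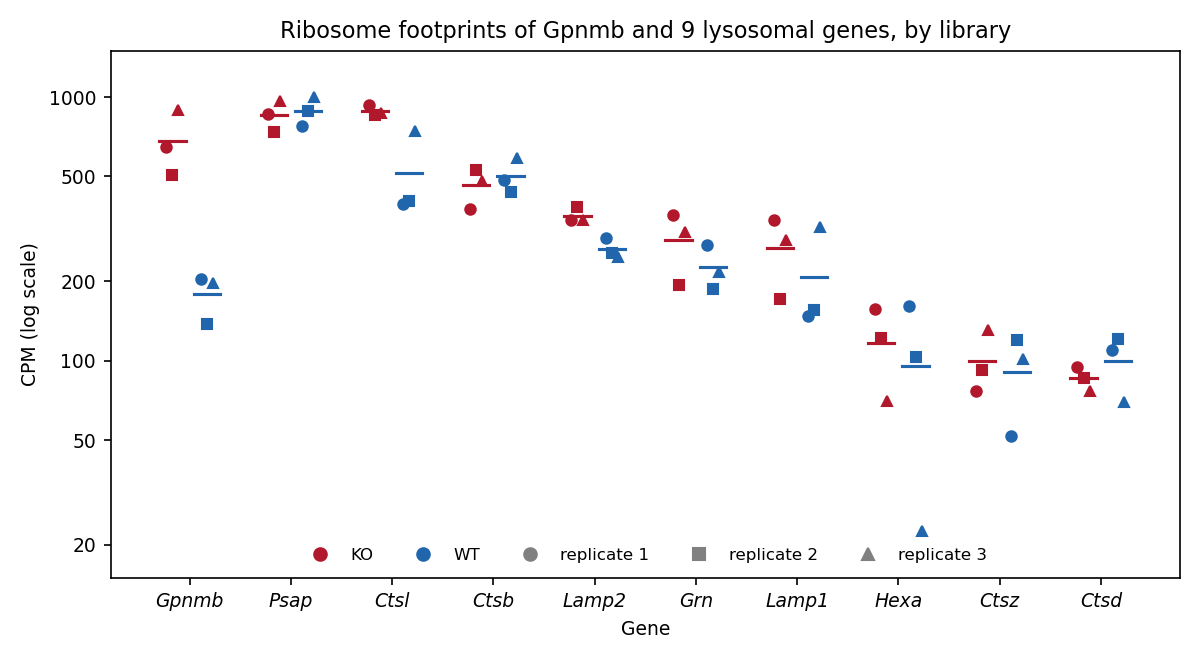
Footprint levels of the 10 genes in CPM on a log axis, one point per library (KO red and left, WT blue and right, shape for the replicate number) with the group mean as a bar. Gpnmb, Ctsl and Lamp2 are the genes whose KO points all lie above their WT points; the mean level of Gpnmb was 683 CPM in KO and 180 CPM in WT.

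Among the cathepsins, the proteases of the lysosomal lumen, Ctsl stood out. Ctsl (chromosome 13, 64359337 to 64370890) encodes cathepsin L, a cysteine endopeptidase, and had 935, 859 and 872 CPM in KO and 394, 403 and 747 CPM in WT. The KO libraries lay close together, while WT replicate 3 lay nearer to them than to the other WT libraries. Means were 889 ± 40.9 CPM in KO and 515 ± 201 CPM in WT (SD, n = 3), a log2 fold change of 0.79 (SE 0.24, 95% interval 0.27 to 1.31, edgeR adjusted p = 0.386). Other tools did call it, with adjusted p = 0.0346 in DESeq2, 0.00856 in limma-voom and 0.00247 in edgeR on molecule equivalents. Those settings also called more of all genes than the main fit did, with the counts given below. Without single libraries the log2 fold change was 0.63 to 1.16, the highest without WT replicate 3, and edgeR called it in none of those 6 fits.

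The 3 other cathepsins had overlapping groups. Ctsb (chromosome 14, 63122462 to 63145923) encodes cathepsin B, a cysteine protease that also trims dipeptides from the ends of its substrates. It had 376, 530 and 481 CPM in KO and 486, 435 and 587 CPM in WT. The groups overlapped, with a log2 fold change of -0.12 (SE 0.22, 95% interval -0.60 to 0.36). Ctsd (chromosome 7, 142375911 to 142388038), the aspartic protease cathepsin D, had 94.8, 86.1 and 76.6 CPM in KO and 109, 120 and 70.0 CPM in WT. It stood at -0.22 (SE 0.43, 95% interval -1.14 to 0.70), and WT replicate 3 was the lowest of the 6. Ctsz (chromosome 2, 174427493 to 174439039), the carboxypeptidase cathepsin Z, had 76.5, 92.1 and 131 CPM in KO and 51.7, 120 and 101 CPM in WT. Its log2 fold change of 0.13 (SE 0.46) had a wide interval of -0.85 to 1.11. Within each library the ratio of Ctsl to Ctsb was 2.49, 1.62 and 1.81 in KO and 0.81, 0.93 and 1.27 in WT, which did not overlap. Such a ratio does not depend on the scaling between libraries. Ctsl alone already separated the groups, so the ratio is a description and supports no test.

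The LAMP proteins, which line the lysosomal membrane, were both positive and smaller. Lamp2 (chromosome X, 38401357 to 38456454), needed for fusion with autophagosomes and for chaperone-mediated autophagy, had 341, 382 and 342 CPM in KO and 291, 255 and 247 CPM in WT. The groups did not overlap, and the means were 355 ± 23.5 CPM in KO and 264 ± 23.6 CPM in WT (SD, n = 3). The log2 fold change was 0.42 (SE 0.24, 95% interval -0.087 to 0.93, edgeR adjusted p = 0.953) and stayed between 0.37 and 0.50 without single libraries. Lamp1 (chromosome 8, 13159161 to 13175338), its close relative, had 342, 171 and 287 CPM in KO and 148, 156 and 320 CPM in WT. KO replicate 2 and WT replicate 3 crossed the groups, and the log2 fold change of 0.36 (SE 0.36, 95% interval -0.41 to 1.13) was 0.81 when WT replicate 3 was left out and 0.15 when KO replicate 1 was.

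The precursor proteins and the glycosidase had overlapping groups. Psap (chromosome 10, 60277627 to 60302597) encodes prosaposin, which is cut into the saposins that present lipids to hydrolases. It had 863, 736 and 967 CPM in KO and 778, 887 and 998 CPM in WT. It was the most deeply covered of the 10, with 37.3 to 52.6 molecule equivalents in KO and 44.3 to 85.3 in WT. Its log2 fold change was -0.054 (SE 0.19), and the interval of -0.46 to 0.35 lies wholly below the lower limit for Gpnmb. Gpnmb was picked for its rise, so that comparison is a description. Grn (chromosome 11, 102430315 to 102437048) encodes progranulin, which binds prosaposin and is cut into granulins in lysosomes. It had 358, 194 and 308 CPM in KO and 274, 188 and 216 CPM in WT. Its groups overlapped, with 0.34 on the log2 scale (SE 0.30, 95% interval -0.30 to 0.99). Hexa (chromosome 9, 59539540 to 59565109), the alpha subunit of beta-hexosaminidase, had 158, 122 and 70.4 CPM in KO and 161, 103 and 22.5 CPM in WT. Replicate 3 was the lowest in each group, and WT replicate 3 held 39 counts, equal to 1 molecule equivalent. The Hexa difference of 0.29 (SE 0.58, 95% interval -0.95 to 1.52) had a wide interval. It was 0.89 without WT replicate 1 and -0.18 without WT replicate 3.

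**Figure D2:**
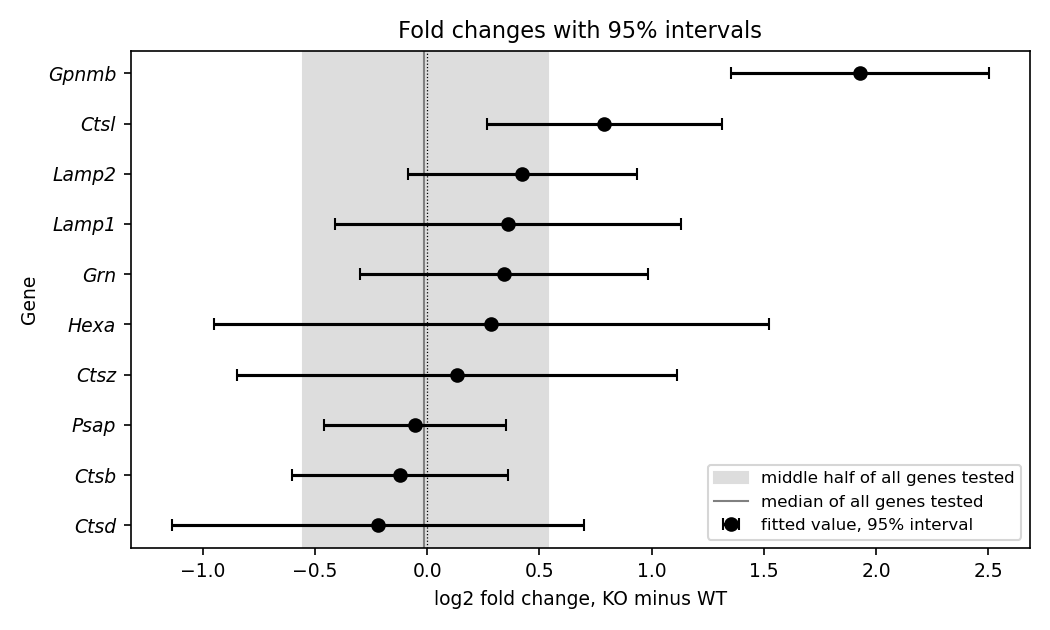
Fitted log2 fold changes (KO minus WT) of the 10 genes with 95% intervals from edgeR; the grey band runs from the 25th to the 75th percentile of all 8200 genes tested, and the grey line is their median of -0.016. The interval of Gpnmb starts at 1.35, above the upper limit of each other gene except Hexa, whose interval ends at 1.52. Gpnmb was picked for its rise, so this comparison is a description.

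Set side by side, the 95% upper limits of 8 of the 9 genes lay below the lower limit of 1.35 for Gpnmb. Hexa was the exception. The upper limit was under 1, a doubling, for 5 of the 9 (Ctsb, Ctsd, Lamp2, Psap and Grn). For Ctsl, Ctsz, Lamp1 and Hexa a doubling was inside the interval. Each interval is that of the gene alone, and the difference between Gpnmb and the others was not tested because Gpnmb had been picked for its size.

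Summed over the 9 genes, the level was 3544, 3171 and 3534 CPM in KO and 2693, 2668 and 3309 CPM in WT. KO replicate 2 lay below WT replicate 3, and the means of 3416 ± 213 CPM in KO and 2890 ± 363 CPM in WT (SD, n = 3) gave a ratio of 1.18. Without Ctsl the sums were 2528 ± 188 CPM in KO and 2376 ± 163 CPM in WT, a ratio of 1.06. Ctsl had the largest difference of the 9, so leaving it out had to lower the ratio. As a share of all gene counts without TMM, the 9 genes held 0.357%, 0.331% and 0.364% in KO and 0.262%, 0.249% and 0.316% in WT, and on that scale the groups did not overlap. For every 100 CPM of the 9 genes together, Gpnmb had 18.2, 16.0 and 25.3 CPM in KO and 7.56, 5.17 and 5.96 CPM in WT. Every KO value lay above every WT value, with a ratio of means of 3.19, beside 3.80 for the CPM of Gpnmb alone. Because Gpnmb was picked for its rise, this ratio too is a description and supports no test.

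**Figure D3:**
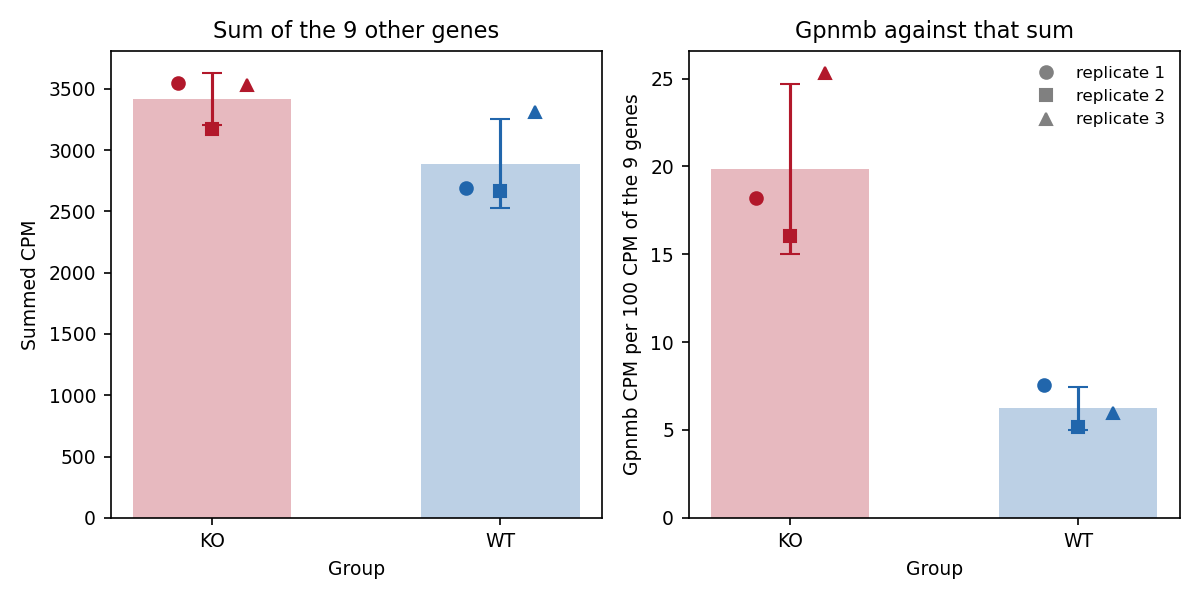
Left, summed CPM of the 9 lysosomal genes by library; right, CPM of Gpnmb for every 100 CPM of that sum. Bars are means, error lines are SD over 3 libraries and points are libraries (KO left, WT right). The summed level overlaps between the groups, while the Gpnmb ratio is 16.0 or more in KO and 7.56 or less in WT. Gpnmb was picked for its rise, so the right panel is a description.

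Levels between genes were compared per kilobase of coding sequence. In WT, Psap (517 ± 64.3), Ctsl (511 ± 200) and Ctsb (494 ± 75.8 CPM per kb) shared the top with overlapping libraries, and all of their libraries lay above those of Lamp2 (174 ± 15.5). Gpnmb ranked 7 of 10 at 101.5 ± 20.5 CPM per kb, with libraries overlapping those of its neighbours Grn and Ctsz. In KO, Ctsl stood alone at the top at 883 ± 40.7 CPM per kb, its libraries all above those of Psap. Gpnmb ranked 4 of 10 at 386 ± 111 CPM per kb, overlapping Ctsb above it and clear of Lamp2 below it at 233 ± 15.4. From Lamp2 down to Ctsd at 69.8 ± 7.39 CPM per kb, each neighbour in the KO order overlapped the next.

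Of 103 other lysosomal genes in 5 lists, 82 were tested, and none was called in either direction by edgeR. At an unadjusted p under 0.05, 6 were higher (2.7% of all genes) and 1 lower (3.79% of all genes). The median log2 fold change of the 82 was 0.11, with 47 positive and 35 negative, beside -0.016 over all genes tested. In limma-voom the median of the 82 was -0.0085 with 41 positive, beside -0.13 over all genes tested. Coverage was thin, with a median of 3.76 molecule equivalents, beside 2.54 over all genes tested. Among the 22 with a mean of at least 100 CPM, a limit used after values had been seen, 19 were positive with a median of 0.24, beside 755 of the 1740 genes above the same level and a median of -0.062. That median stayed positive in all 15 other settings, from 0.22 to 0.36. In 4 of the 22 (18.2%) the KO libraries all lay above the WT libraries, beside 9.60% of genes at that level.

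The other lysosomal proteases (8 of 14 tested, median 0.11, none called) included none with separated groups. The carboxypeptidase Ctsa, which also protects lysosomal sialidase, stood at 0.041 (SE 0.28), the carboxypeptidase Scpep1 at 0.23 (SE 0.29) and the tripeptidyl peptidase Tpp1 at 0.18 (SE 0.35). Cathepsins K, E, F and W had no count in any library. Among glycosidases, sulfatases, lipases and nucleases (31 of 35 tested, median -0.14) the groups were separated upward in 3 genes (6.94% of all genes) and downward in 2 (7.93% of all genes). Asah1, acid ceramidase, had 415, 529 and 244 CPM in KO and 226, 330 and 280 CPM in WT (log2 fold change 0.51, SE 0.29). Gaa, the glycogen-degrading acid glucosidase, stood at 0.54 (SE 0.39) and Manba, beta-mannosidase, at 0.28 (SE 0.45).

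Activators and sorting receptors (11 of 12 tested, median 0.14) held the most abundant genes of these lists. The mannose 6-phosphate receptor Igf2r, which carries hydrolases to lysosomes, stood at 0.19 (SE 0.23), the endocytic receptor Lrp1 at -0.056 (SE 0.23) and Scarb2, which delivers glucocerebrosidase, at 0.14 (SE 0.33). Npc2, which binds cholesterol in the lysosome, was outside the naming rule and picked for separated groups. It had 265, 402 and 179 CPM in KO and 147, 133 and 174 CPM in WT. Gm2a, the activator that Hexa needs to cut GM2 ganglioside, had 164, 100.2 and 104 CPM in KO and 71.7, 42.0 and 48.0 CPM in WT, also picked after its values were seen. On the log2 scale Npc2 differed by 0.90 (SE 0.33, edgeR adjusted p = 0.531). Gm2a differed by 1.19 (SE 0.46, edgeR adjusted p = 0.565).

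Membrane proteins (17 of 24 tested, median 0.37, 13 positive) included Laptm4a, a small protein of late endosomes and lysosomes, with 253, 269 and 221 CPM in KO and 144, 152 and 72.8 CPM in WT. Its groups did not overlap, and its log2 fold change was 1.01 (SE 0.34, edgeR adjusted p = 0.448; DESeq2 adjusted p = 0.0331). The tetraspanin Cd63 stood at 0.074 (SE 0.30) and the endolysosomal cation channel Tpcn1 at 0.41 (SE 0.31). The vacuolar ATPase (15 of 18 tested, median 0.029) had 8 positive and 7 negative genes. At 100 CPM or more, 6 of its 7 genes were positive with a median of 0.25, beside 43.4% positive among all genes at that level. The most abundant subunits Atp6v1h, Atp6v1e1 and Atp6v1a stood at 0.46 (SE 0.28), 0.12 (SE 0.31) and -0.20 (SE 0.30), and Atp6v1a was the negative one of those 7.

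**Figure D4:**
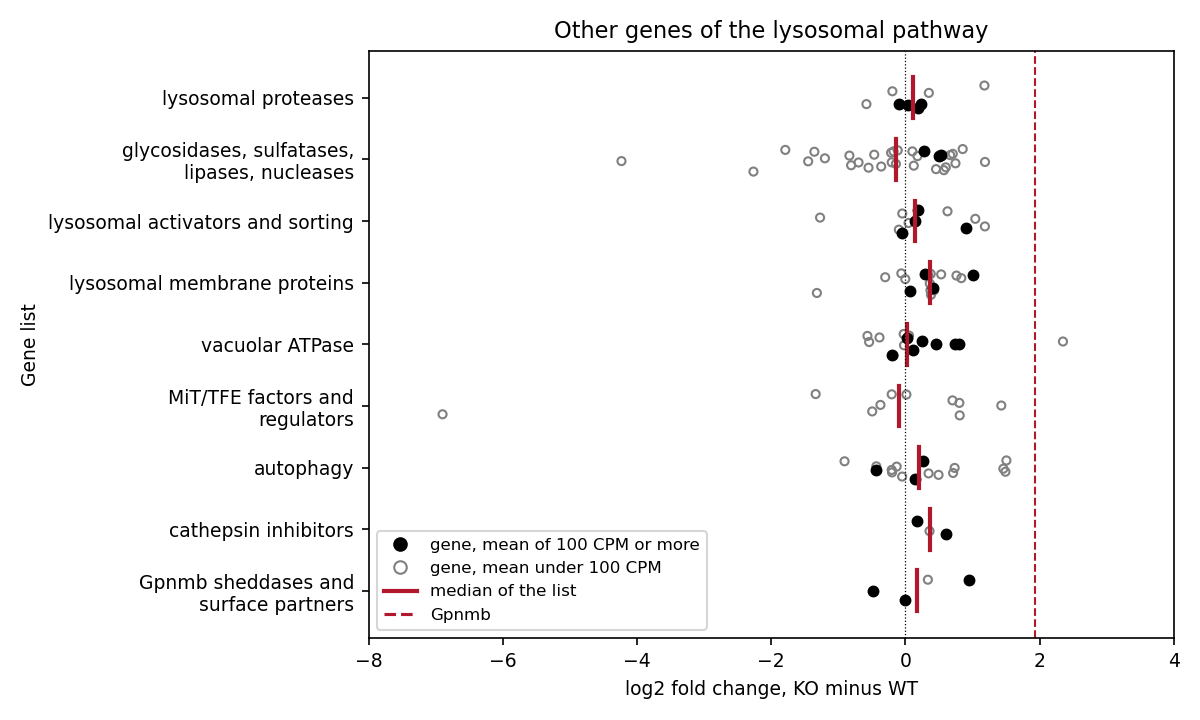
Log2 fold changes (KO minus WT) of tested genes in each other list, one point per gene, filled where the mean level was 100 CPM or more; the red bar is the median of the list, and the dashed line is Gpnmb at 1.93. The medians lie between -0.14 and 0.37. Points far from 0 at the left are genes with very low counts, such as Lamtor1 with 1 count over the KO libraries. The point to the right of the dashed line is Atp6v0a2 at 2.35, with a mean under 100 CPM.

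Of the MiT/TFE factors, Mitf and Tfec were at or near 0. Mitf had 2 counts in 1 KO library and none elsewhere, and Tfec had none. Tfeb had 24, 1 and 39 counts in KO and 40, 28 and 30 counts in WT, and Tfe3 had 67, 91 and 177 counts in KO and 62, 94 and 59 counts in WT. Tfe3 stood at 0.015 (SE 0.76) and Tfeb at -1.34 (SE 2.06), with an average of 2.77 molecule equivalents for Tfe3 and fewer for Tfeb. The CPM of Tfeb was lower in every KO library than in any WT library, on counts that low, and that of Tfe3 overlapped. The lysosomal GTPases that hold these factors in check, Rraga and Rragc, stood at 0.81 (SE 0.68) and 0.80 (SE 0.51), and Fnip1, a partner of folliculin, at -0.37 (SE 0.55). Rraga was 2.13 when WT replicate 1 was left out and 0.30 when WT replicate 3 was, and 1.59 in limma-voom. Fnip1 was -0.99 when KO replicate 1 was left out and -0.012 when KO replicate 2 was. None of the 10 tested genes of this list was called by edgeR. The melanosome genes Pmel, Mlana, Tyr, Tyrp1 and Dct had no count in any library; a count of 0 here covers counting error only and does not exclude low expression.

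Autophagy genes (16 of 17 tested, median 0.20) were not called in either direction. Gabarap, a ubiquitin-like protein of autophagosomes, stood at 0.14 (SE 0.22), the conjugation enzyme Atg7 at 0.26 (SE 0.39) and the cargo receptor Sqstm1, which is itself degraded in lysosomes, at -0.43 (SE 0.23). The cathepsin inhibitors Cst3 and Cstb and the serpin Serpinb6a were positive at 0.61 (SE 0.26), 0.36 (SE 0.43) and 0.17 (SE 0.22). Cst3, the secreted cystatin C, had 502, 485 and 361 CPM in KO and 265, 238 and 379 CPM in WT, with KO replicate 3 below WT replicate 3.

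Of the proteins that shed or bind Gpnmb at the cell surface, Cd44, a hyaluronan receptor, came closest to a call. It had 644, 590 and 690 CPM in KO and 323, 340 and 332 CPM in WT, a log2 fold change of 0.95 (SE 0.21, edgeR adjusted p = 0.066), and it was called in 5 of 15 other settings. The groups did not overlap and the spread within each was small. The protease Adam10 stood at -0.48 (SE 0.33) and the proteoglycan Sdc4 at 0.00069 (SE 0.22).

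By the smallest root mean square difference between centred log2(CPM + 1) profiles over the 6 libraries, the 4 of 1739 other genes (mean of 100 CPM or more) most like Gpnmb were Bmper, Plxdc2, Ulbp1 and B2m. Bmper, a secreted regulator of bone morphogenetic proteins, differed by 0.23 and had 503, 390 and 647 CPM in KO and 196, 119 and 112 CPM in WT. Plxdc2 differed by 0.27, the NKG2D ligand Ulbp1 by 0.29 and B2m by 0.35. B2m encodes beta-2-microglobulin, which pairs with MHC class I heavy chains. Of the 7 lysosomal members at that level, Ctsl ranked 55 at 0.64, Lamp2 181 at 0.81, Grn 203 at 0.83 and Lamp1 255 at 0.86. Psap ranked 587 at 1.01, Ctsb 762 at 1.06 and Hexa 1272 at 1.23. Since Gpnmb was picked for separating the groups, genes close to it separate them too.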

How the data were processed

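Per the labels' protocols, the authors trimmed adapters with Cutadapt, kept reads of 25 to 34 nt, removed rRNA and tRNA reads with Bowtie, and aligned the rest to GRCm38 with HISAT2 and to transcripts with Bowtie. FeatureCounts and DESeq2 appear as well in the submitters' processing notes. For versions, annotation, strand and duplicate handling, the sources used here give nothing. Close paralogs and overlapping genes may share these short fragments.

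The authors deposited whole-number counts per gene, not normalized. Here edgeR 4.0.16 (R 4.3.3) was run with TMM, filterByExpr and the robust quasi-likelihood test on all 8200 genes that passed. Benjamini-Hochberg adjustment covered all of them, and genes were called at 0.05. Alternatives were DESeq2 1.42.0, limma-voom (limma 3.58.1), other size factors, filters and leave-one-out fits. The fit was tested on simulated data. Molecule equivalents divide counts by the peak of a library's count histogram (counts of 8 to 150, kernel bandwidth 3). Coding length is the union of coding exons in GENCODE M21.

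Members and lists were chosen with earlier results of these data known. Named genes were the members, the 3 most abundant of each list, any called, the MiT/TFE factors, Nat10 and the 4 most like Gpnmb; exceptions are marked. Deviations from the group mean were nearly uncorrelated between same-numbered KO and WT libraries (r = -0.017 to -0.0026 across genes), which does not show independence. Across tested genes, log2(CPM + 1) correlated at 0.58 to 0.61 within KO and 0.63 to 0.71 within WT. Between KO and WT libraries it correlated at 0.55 to 0.64, so the KO libraries were not clearly closer to each other than to WT libraries.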

Additional observations from a re-analysis of the deposited data

How the results depend on the processing

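The log2 fold change of Gpnmb was positive in all 15 other settings and called in 13. It was 1.68 to 2.11 without single libraries. The count of called members was 2 in DESeq2, limma-voom and molecule equivalents (Gpnmb and Ctsl), and 0 to 1 without single libraries. The other lists had 115 genes tested under the main count filter, which DESeq2, limma-voom and library totals share. Of these, 3 were called by DESeq2 (Cd44, Laptm4a and Lamtor1) and 1 (Cd44) by limma-voom and with library totals. On molecule equivalents, where fewer were tested, 2 were called (Cd44 and Npc2), and with no count filter 1 (Cd44). The counts over all genes follow, and these list counts are descriptions beside them. Over all genes, 237 of 8200 were called by DESeq2, 93 of 8200 by limma-voom, and 91 with no count filter. On molecule equivalents 110 of the 968 tested were called, and without single libraries 6 to 29 (6 without WT replicate 2 or WT replicate 3). With library totals the split was 27 higher and 16 lower, against 15 and 18, and the median of all genes moved from -0.016 to 0.093. limma-voom put that median at -0.13. The ratio of the 9 summed genes was 1.14 to 1.27 without single libraries. The replicate number as a block called 38 genes and the same 1 member. The labels tie same-numbered libraries by number only, and the block changed no call among the members.

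Signs near 0 depended on the setting, and the cause was not tested. Psap was 0.055 with library totals and 0.036 on molecule equivalents, and Lrp1 0.055 and Nat10 0.026 with library totals. With limma-voom Ctsa was -0.052, Sdc4 -0.025, Tfe3 -0.019 and Nat10 0.019. With the replicate block Ctsa was -0.0015, Sdc4 -0.026 and Tfe3 -0.039. Without single libraries the ranges were -0.22 to 0.014 for Ctsb, -0.15 to 0.38 for Ctsz, -0.16 to 0.052 for Psap, -0.18 to 0.89 for Hexa, -0.17 to 0.26 for Ctsa, -0.12 to 0.53 for Tpp1, -0.039 to 0.66 for Manba, -0.29 to 0.12 for Lrp1, -0.054 to 0.42 for Scarb2, -0.15 to 0.20 for Cd63, -0.20 to 0.26 for Atp6v1e1, -0.035 to 0.31 for Gabarap, -0.20 to 0.15 for Sdc4, -0.29 to 0.26 for Tfe3 and -0.35 to 0.35 for Nat10. On molecule equivalents, whose premise was not tested, Ctsd, Ctsz and Hexa did not pass the count filter.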

Other observations

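No gene tested next to Gpnmb on chromosome 6 was called. Of 7 tested genes within 1000000 bases on either side, 2 had a positive and 5 a negative log2 fold change, with a median of -0.55 and none called by edgeR (0.402% of all genes). In 2 of the 7 the groups did not overlap, both lower in KO, beside 7.93% of all genes. Zfp777, Zfp746 and Gimap9 had standard errors of 2.69, 2.44 and 2.65 and Malsu1 one of 0.85, too wide to show or miss a difference like that of Gpnmb, so the count and the median rest partly on them. Tra2a, a splicing regulator, averaged 117 ± 13.9 CPM in KO and 311 ± 67.6 CPM in WT (SD, n = 3), which is -1.41 on the log2 scale (SE 0.30; adjusted p = 0.0632 by edgeR). Tmem176a, a membrane protein of the endosomal system, averaged 176 ± 33.1 CPM in KO and 336 ± 24.8 CPM in WT (log2 fold change -0.93, SE 0.27, edgeR adjusted p = 0.294). Its neighbour Tmem176b averaged 650 ± 198 CPM in KO and 951 ± 176 CPM in WT (-0.55, SE 0.23). The genes of this window were looked up after the values of Gpnmb had been seen.

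The vacuolar ATPase list held 2 genes with groups separated upward among 15 tested, beside 6.94% of all genes. Atp6ap1, an accessory subunit, had 298, 247 and 202 CPM in KO and 147, 153 and 147 CPM in WT, a log2 fold change of 0.74 (SE 0.29, edgeR adjusted p = 0.570). The membrane subunit Atp6v0a2 had 291, 120 and 351 counts in KO and 26, 73 and 2 counts in WT, averaging 3.44 molecule equivalents, which is too thin for a firm fold. Lamtor1, a scaffold of mTORC1 on the lysosome, had 0, 0 and 1 counts in KO and 25, 47 and 36 counts in WT, and no fold is given. Arsb, the arylsulfatase of dermatan sulfate, stood at 1.19 (SE 0.54) with groups that did not overlap. All 4 were named after their values had been seen.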
